A study of Rattus norvegicus with 10 samples.

Results

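The genes described here govern iron uptake, export and sensing in macrophages. They are Tfrc, Slc11a1, Slc11a2, Slc40a1, Hamp, Aco1, Ireb2, Hfe, Cp and Steap3, chosen by name. Of these 10 genes, 9 were found on the arrays, as 15 of the 31042 probe sets tested, by taking every probe set to which the array annotation gives 1 of these symbols and no other. No probe set carries Slc11a1 as its only symbol in the annotation used here, so that gene was not analysed here. The 10 arrays were made from resident peritoneal macrophages of Wistar rats (strain Hsdcpb:WU, 200-224 grams), obtained by lavage and kept as the adherent cells. The 5 samples of mye-macrophages received 100 µg/ml of myelin purified from rat brain, and the 5 samples of control macrophages received none. After 3 days all 10 samples, the controls included, received IFNγ and IL-1β at 100 ng/ml for 9 hours, so no sample shows these genes in resting macrophages. Whether each sample came from its own animals is not stated in the labels, and p-values measure only the spread between these samples, which may be technical.

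Cells take up iron as transferrin bound to its receptor, which Tfrc encodes. In the endosome the ferric iron is reduced by Steap3 and carried into the cytosol by the divalent metal transporter Slc11a2. Ferroportin, the product of Slc40a1, is the known iron exporter. The ferroxidase ceruloplasmin, encoded by Cp, oxidizes the exported iron, and hepcidin, encoded by Hamp, binds ferroportin and causes its degradation. The iron regulatory proteins encoded by Aco1 and Ireb2 bind stem-loops in mRNAs when iron is scarce, which stabilizes the Tfrc mRNA and blocks translation of ferritin and ferroportin. Macrophages are known for recycling iron from ingested red cells, and inflammation is known to make them retain it.

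Promoter windows of 8 of the 10 genes were found in RefSeq (GRCr8). Each window was read over the 250 bases before the gene's start, and Slc11a2 has 2 windows. Windows of Hamp and Tfrc are shown in part, because they held all matches to 4 motifs of known regulators of iron genes. Capitals mark the matches, and distances are counted backward from the start. The Hamp stretch is chr1:95300362-95300421 (minus strand, from 150 to 91 bases before the start). Its capitals are GGCGCC, the core of the BMP-responsive element, and TTCTTGGAA, a match to the gamma-activated site TTCNNNGAA to which STAT proteins bind. The Tfrc stretch is chr11:81690329-81690448 (minus strand, from 130 to 11 bases before the start). Its capitals are GGCGCC and ACGTG, the core of the hypoxia-responsive element.
Hamp: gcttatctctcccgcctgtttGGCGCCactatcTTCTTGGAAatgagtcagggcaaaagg
Tfrc: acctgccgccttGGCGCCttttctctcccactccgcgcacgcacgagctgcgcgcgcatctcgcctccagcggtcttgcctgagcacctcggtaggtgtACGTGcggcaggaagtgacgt

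On both strands of all 33469 windows, TTCNNNGAA was present in 7.667%, GGCGCC in 8.695% and ACGTG in 16.57%, and no overlap between motifs occurred in the printed stretches. The antioxidant response element TGACNNNGC was present in 10.08% of windows and in 0 of the 9 windows of iron genes. A match describes the letters of the window and shows no binding.

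None of the 9 iron uptake, export and sensing genes differed between mye-macrophages and control macrophages past the test. The deposited values are log2 RMA signals, and the groups were compared with limma with the replicate number as a block, since samples with the same number deviated together. A probe set was called at a Benjamini-Hochberg adjusted p under 0.05, adjusted over the more variable 15521 probe sets (by interquartile range). Of the 15 iron probe sets 11 passed this filter, and 0 were called higher and 0 lower. The only Hfe probe set lay outside the filter and could not be called. Of the filtered probe sets of the whole array 2.69% were called (0.792% higher and 1.9% lower), so 0 of 11 does not set the iron genes apart. In 0 of the 15 did all samples of one group lie above all of the other, against 0.734% of all probe sets. The lowest adjusted p was 0.137 (Steap3, blocked limma) and the highest 0.931. At an unadjusted p under 0.05 blocked limma gave 5 of the 15 probe sets, against 12.1% of all probe sets and 20.3% of the filtered ones, and these 5 came from 3 genes, with 3 of Cp, 1 of Tfrc and 1 of Steap3. Without pair 5 that count was 0. It was also 0 by limma without the block, where 4.46% of all probe sets had so low a p, and by the methods' t-test, and it was 2 after quantile normalization and 3 without pair 3 or 4. The median log2 fold change of the 15 probe sets was 0.013, against 0.0044 over all probe sets tested. With the block, limma's 95% intervals reached from -0.72 to 0.37 (log2), that is between 1.65-fold lower and 1.29-fold higher, and without the block between -1.38 and 0.77. Fewer cells of a type and less RNA per cell cannot be told apart on these arrays.

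**Figure D1:**
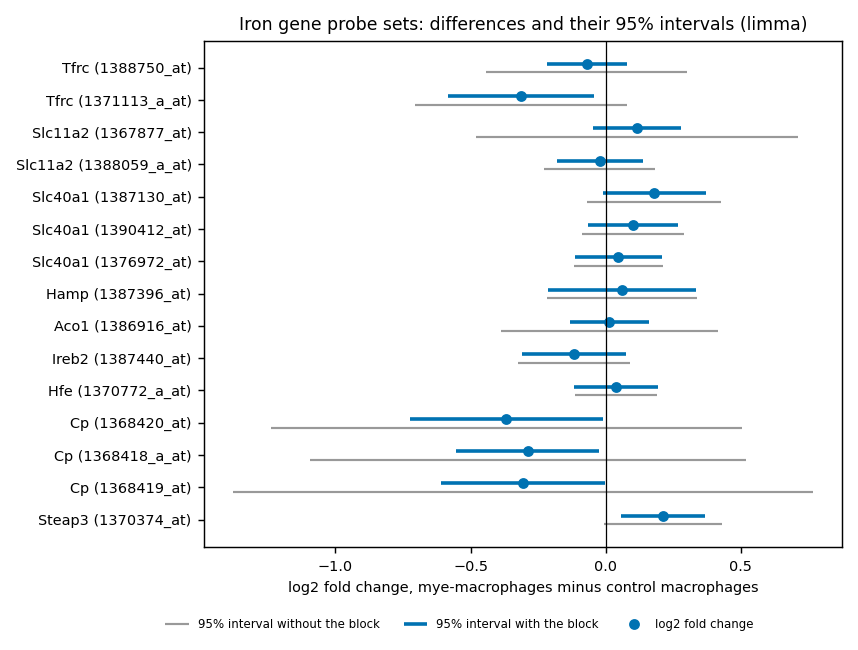
Log2 fold change (x axis, mye-macrophages minus control macrophages) of the 15 iron gene probe sets (y axis), with the 95% interval from limma with the replicate block (blue) and without it (grey). Every interval without the block spans 0, and with the block those of the 3 Cp probe sets and 1 Tfrc probe set lie below 0 and that of Steap3 above it, before adjustment.

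Tfrc, the gene of the transferrin receptor, has 2 probe sets. On the brighter one (1388750_at) the log2 signal in control macrophages 1 to 5 was 7.98, 7.73, 8.42, 8.33 and 8.35, and in mye-macrophages 1 to 5 it was 7.79, 7.72, 8.34, 8.26 and 8.34. Both groups covered the same range, and the samples numbered 1 and 2 were the lowest of each. Mye-macrophages lay below their control in 5 of 5 pairs, but by no more than 0.18, and the log2 fold change was -0.07 (standard error 0.07, 95% interval -0.22 to 0.08, adjusted p = 0.587 from blocked limma). The dimmer probe set (1371113_a_at) read 4.99, 4.73, 5.18, 5.10 and 5.23 in control macrophages and 4.08, 4.63, 5.17, 4.88 and 4.89 in mye-macrophages. Its log2 fold change was -0.31 (standard error 0.12, interval -0.58 to -0.04, adjusted p = 0.187 from blocked limma), also with 5 of 5 pairs lower. Pair 1 had the widest difference on this probe set, -0.91, and pair 3 had -0.0074. Without pair 1 the log2 fold change of the dimmer probe set was -0.17. The same direction in all 5 pairs was seen in 3 of the 15 iron probe sets and in 12.8% of all probe sets.

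Steap3 encodes the endosomal ferrireductase that prepares iron for export from the endosome. Its only probe set read 5.74, 6.05, 6.02, 6.02 and 5.89 in control macrophages and 5.86, 6.29, 6.12, 6.24 and 6.25 in mye-macrophages. The groups overlapped, though the mye-macrophage sample was the higher one in 5 of 5 pairs, by 0.10 to 0.37. The log2 fold change was 0.21 (standard error 0.07, interval 0.06 to 0.37), which did not pass (adjusted p = 0.137 from blocked limma, 0.772 without the block). In the 24 alternatives that gave Steap3 an adjusted p it was not called, and its lowest adjusted p was 0.0639, from limma with a trended and robust prior.

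Slc11a2 is the gene of the transporter that moves iron from the endosome to the cytosol. The means of its pairs ranged wider than its group difference, as they did on all 15 iron probe sets. Its brighter probe set (1367877_at) read 6.07, 5.42, 6.63, 6.80 and 6.15 in control macrophages and 6.19, 5.59, 6.69, 6.74 and 6.44 in mye-macrophages. Pair 2 was the lowest in both groups and pair 4 the highest, and the means of the pairs ranged over 1.26 on the log2 scale. The log2 fold change was 0.12 (standard error 0.07, adjusted p = 0.408 from blocked limma). On the other probe set (1388059_a_at), which lay outside the variance filter, it was -0.02 (standard error 0.07, p adjusted over all probe sets 0.933 from blocked limma), with a range of the pair means of 0.33. The mye-macrophage sample was higher in 4 of 5 pairs on the first probe set and in 3 of 5 on the second.

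**Figure D2:**
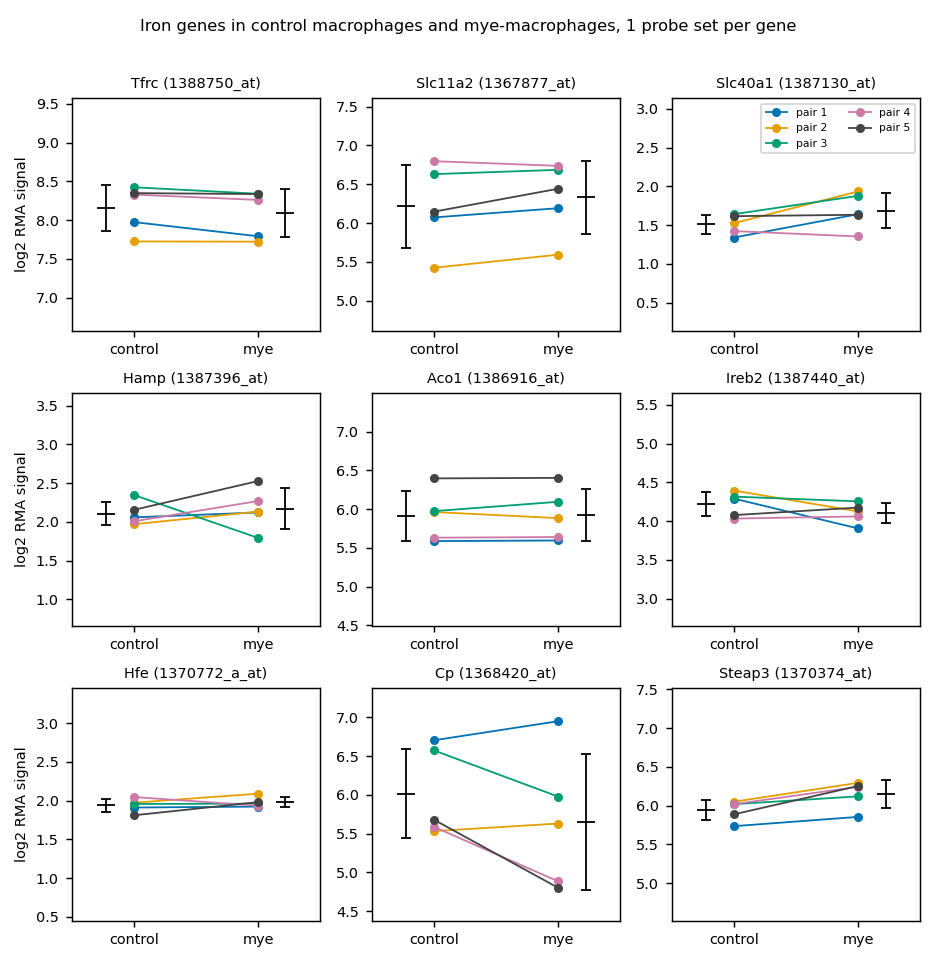
Log2 RMA signal (y axis, each panel spanning the same number of log2 units) of the brightest probe set of each of the 9 iron genes in control macrophages and mye-macrophages. Each colored line is 1 pair, and black bars give the mean ± SD of 5 samples. The lines of Tfrc and Aco1 are nearly level, some of them close together, and those of Cp cross.

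Slc40a1, the ferroportin gene, lay low on all 3 of its probe sets. Their mean signals of 1.60, 1.56 and 0.84 were under 2.32, the median of all values, as were those of Hamp and Hfe. The brightest (1387130_at) read 1.34, 1.53, 1.64, 1.42 and 1.62 in control macrophages and 1.64, 1.94, 1.88, 1.35 and 1.63 in mye-macrophages. The mye-macrophage sample was higher in 4 of 5 pairs, lower in pair 4 by 0.07, and the groups overlapped. The log2 fold change was 0.18 (standard error 0.09, interval -0.01 to 0.37, adjusted p = 0.273 from blocked limma). The other 2 probe sets had 0.10 and 0.05 and lay outside the variance filter (p adjusted over all probe sets 0.642 and 0.845 from blocked limma). So low a signal on every probe set leaves little range in which a lower level could have been measured.

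Cp, the ceruloplasmin gene, had pairs that did not go one way. The brightest probe set (1368420_at) read 6.70, 5.53, 6.57, 5.59 and 5.68 in control macrophages and 6.95, 5.63, 5.98, 4.88 and 4.80 in mye-macrophages. The mye-macrophage sample lay above its control in pairs 1 and 2, by 0.25 and 0.10, and below it in pairs 3, 4 and 5, by -0.60, -0.70 and -0.88. The other 2 probe sets split the pairs in the same way. On 1368418_a_at the differences of pairs 1 to 5 were 0.06, 0.06, -0.31, -0.53 and -0.71, and on 1368419_at they were 0.0083, 0.27, -0.63, -0.62 and -0.54. The 3 probe sets measure 1 gene in the same samples, so they are not independent. Their log2 fold changes were -0.37, -0.29 and -0.30 (standard errors 0.16, 0.12 and 0.14), and none passed (adjusted p = 0.235, 0.214 and 0.245 from blocked limma, and 0.935, 0.936 and 0.944 without the block). The means of the pairs ranged over 1.59, 1.62 and 2.15, several times the group difference. Single samples moved these values. With 1 sample left out and no block, the log2 fold change of 1368420_at was -0.69 when mye-macrophage replicate 1 was dropped and -0.16 when replicate 5 was. Dropping the same samples gave -0.57 and -0.08 on 1368418_a_at. On 1368419_at it was -0.60 when mye-macrophage replicate 1 was dropped and 0.020 when mye-macrophage replicate 4 was. With a pair left out and the block kept, all 3 stayed below 0, between -0.52 and -0.18. Control replicate 1 and mye-macrophage replicate 1 had the highest Cp signal of their groups on every probe set.

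**Figure D3:**
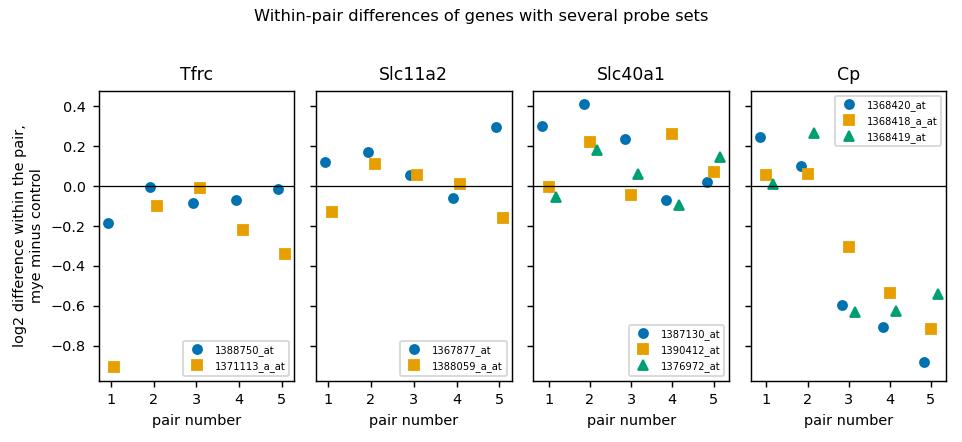
Log2 difference within each pair (y axis, mye-macrophages minus control macrophages) by pair number (x axis) for the 4 iron genes with several probe sets, 1 marker shape per probe set. All 3 Cp probe sets lie above 0 in pairs 1 and 2 and below 0 in pairs 3, 4 and 5, and both Tfrc probe sets lie below 0 in every pair.

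Hamp, the hepcidin gene, is known mainly from liver and was dim here. Its probe set read 2.06, 1.97, 2.35, 2.01 and 2.16 in control macrophages and 2.12, 2.13, 1.79, 2.27 and 2.53 in mye-macrophages. The mye-macrophage sample was the higher one in 4 of 5 pairs, and pair 3 went the other way by -0.55. The log2 fold change was 0.06 (standard error 0.12, interval -0.21 to 0.34, adjusted p = 0.816 from blocked limma). Hfe, whose product binds the transferrin receptor and takes part in hepcidin control, read between 1.81 and 2.05 in control macrophages and between 1.92 and 2.09 in mye-macrophages. Its log2 fold change was 0.04 (standard error 0.07), and it lay outside the variance filter (p adjusted over all probe sets 0.877 from blocked limma).

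The genes of both iron regulatory proteins were measured on 1 probe set each. Aco1, whose product is the cytosolic aconitase when it holds an iron-sulfur cluster, read 5.59, 5.96, 5.97, 5.63 and 6.40 in control macrophages and 5.60, 5.88, 6.09, 5.64 and 6.40 in mye-macrophages. The samples of a pair differed by at most 0.12 while the pair means ranged over 0.81. Its log2 fold change was 0.01 (standard error 0.07, interval -0.13 to 0.16, adjusted p = 0.931 from blocked limma). Ireb2, whose product is degraded when iron is plentiful, read 4.29, 4.39, 4.32, 4.03 and 4.08 in control macrophages and 3.90, 4.12, 4.25, 4.06 and 4.17 in mye-macrophages. It was lower in 3 of 5 pairs, and the log2 fold change was -0.12 (standard error 0.09, interval -0.31 to 0.07, adjusted p = 0.476 from blocked limma). It was -0.05 without pair 1 and -0.17 without pair 5.

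The profiles of Tfrc and Slc40a1 over the 10 samples were set beside those of the other named probe sets that passed the variance filter. For the brighter Tfrc probe set the closest of 10861 were those of Tgoln2 (Pearson's r = 0.985, Spearman's rho = 0.903), Slco4a1 (0.974 and 0.952) and Zfp217 (0.972 and 0.915). The brightest Slc40a1 probe set had a low mean signal of 1.60, under the median of all values. For it the closest of 10862 were those of Slc25a10 (0.963 and 0.875), Gpd1l1 (0.850 and 0.790) and Wdr91 (0.850 and 0.705). These are descriptions of the highest values in a long ranking. The samples vary in pairs, and none of these 6 probe sets was called (lowest adjusted p = 0.107, Slco4a1, blocked limma).

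Of 100 other measured iron genes, each given by its brightest probe set, 2 were higher in mye-macrophages and 1 was lower, and 97 did not pass. Of the 100, 61 lay inside the variance filter. Over the whole array 1.39% of named genes were called by the same rule, or 2.7% of those inside the filter. Blvra, which encodes biliverdin reductase and acts on the product of heme breakdown, rose. Its signal was 7.47, 7.37, 7.50, 7.87 and 7.27 in control macrophages and 8.19, 7.73, 7.96, 8.17 and 7.63 in mye-macrophages. The groups overlapped, with the mye-macrophage sample higher in 5 of 5 pairs, and the log2 fold change was 0.44 (standard error 0.08, adjusted p = 0.0273 from blocked limma). Fbxl5, the iron-binding subunit of the ubiquitin ligase that marks the Ireb2 product for degradation, rose by less. It read 9.10, 9.01, 8.92, 9.36 and 8.89 in control macrophages and 9.41, 9.31, 9.25, 9.63 and 9.11 in mye-macrophages. The groups overlapped, and the log2 fold change was 0.29 (standard error 0.06, adjusted p = 0.0486 from blocked limma) with 5 of 5 pairs higher. Uros, an enzyme gene of heme synthesis, fell by 0.35 on the log2 scale (standard error 0.06, adjusted p = 0.0284 from blocked limma) with 5 of 5 pairs lower. It read 3.44, 3.68, 3.17, 2.81 and 3.69 in control macrophages and 3.01, 3.37, 2.86, 2.41 and 3.39 in mye-macrophages, and its dimmer probe set had -0.23 and did not pass (adjusted p = 0.109 from blocked limma). None of the 3 was called without the block (limma, adjusted p = 0.556 for Blvra, 0.687 for Fbxl5 and 0.875 for Uros), and none with the beta-actin gap, a sign of RNA quality, as a covariate (adjusted p from limma 0.217, 0.253 and 0.200). Fbxl5 was also lost when arrays were rescaled to equal quantiles or equal medians (limma, adjusted p = 0.0509 and 0.0561). With a pair left out, Blvra was called only without pair 3 (adjusted p = 0.0370 from blocked limma, 0.0664 to 0.0874 without any other pair), as was Uros (0.0363, and 0.0766 to 0.0980), while Fbxl5 lost the call whichever pair was left out (0.0739 to 0.132).

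**Figure D4:**
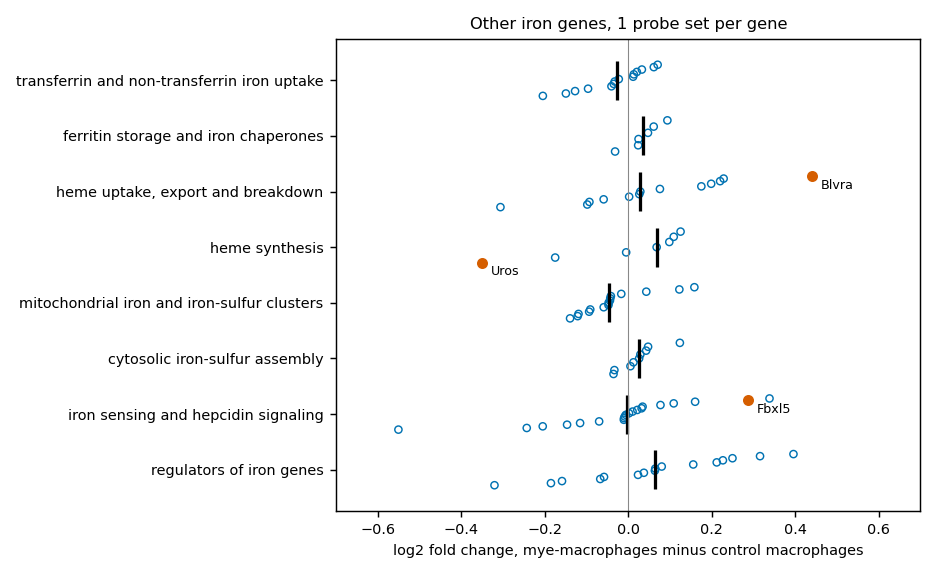
Log2 fold changes (x axis, mye-macrophages minus control macrophages) of 100 other iron genes in 8 lists (y axis), 1 point per gene, and black bars mark the list medians. The filled points, Blvra, Uros and Fbxl5, were called in the blocked limma fit, and the medians lie between -0.05 and 0.07.

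By list, 1 of 13 genes of heme uptake, export and breakdown was called (Blvra), 1 of 7 of heme synthesis (Uros) and 1 of 20 of iron sensing and hepcidin signaling (Fbxl5). None was called by blocked limma among 14 genes of transferrin and other iron uptake, 6 of ferritin storage and iron chaperones, 15 of mitochondrial iron, 9 of cytosolic iron-sulfur assembly and 16 regulators of iron genes. In the same order, 7, 3, 9, 3 and 12 of these lay inside the variance filter, and the others could not be called. Neither the ferritin genes nor Tf were among the genes measured for these lists. At an unadjusted p under 0.05 the count was 15 of the 100 genes, against 12.6% of named genes on the array. These were 5 of 13 in heme uptake, export and breakdown, 1 of 7 in heme synthesis, 5 of 20 in iron sensing and hepcidin signaling and 4 of 16 among the regulators, with 0 in the other lists. The medians of the 8 lists ran from -0.05 for mitochondrial iron to 0.07 for heme synthesis, and over all 100 genes the median was 0.01. The BMP receptor gene Bmpr2 was the only one of the 100 whose groups did not overlap, against 0.619% of named genes. Its signal was at least 5.56 in control macrophages and at most 5.48 in mye-macrophages, and the difference of -0.55 on the log2 scale (standard error 0.13) did not pass (adjusted p = 0.0619 from blocked limma). Probe sets of 1 gene disagreed in some cases. A Smad5 probe set with groups apart had -0.32 while the brightest had 0.16, and neither passed. For Mitf, a transcription factor gene of lysosome and iron genes, a dimmer probe set (1393836_at) fell by 0.70 (adjusted p = 0.0336 from blocked limma), while the brightest had 0.08 and did not pass.

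Hmox1, the heme oxygenase gene, had a strong signal and no difference past the test. It read between 10.3 and 11.2 in both groups, and the log2 fold change was 0.0019 (standard error 0.08, interval -0.18 to 0.18, adjusted p = 0.994 from blocked limma). Ncoa4, the receptor that delivers ferritin to autophagy, had 0.02, and Nfe2l2, the gene of Nrf2, a known inducer of ferroportin, had -0.06. Both lay outside the variance filter (p adjusted over all probe sets 0.928 and 0.790 from blocked limma). The probe sets of Fth1, Ftl1 and Tf carry further gene symbols in the annotation, pseudogenes among them, and were not named, so ferritin and transferrin values are not given.

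All 11 measured macrophage markers lay above the median of all values, with a mean log2 level of 8.34 to 9.38 per control sample and 8.34 to 9.46 per mye-macrophage sample. Among them Mrc1 was called higher. The 11 markers of oligodendrocytes and myelin had a mean level of 2.38 to 2.76 in control macrophages and 2.92 to 3.19 in mye-macrophages, and 2 of them (Mobp and Bcas1) were called higher, as was Slc1a3 among 8 astrocyte markers, whose mean levels ran from 1.82 to 2.42 and from 1.87 to 2.42. Mbp, the gene of myelin basic protein, had -0.20 on its brightest probe set and 3.37 on another, which was called higher. The dimmer probe sets of Mobp (log2 fold changes 0.0067 and 0.12) and of Slc1a3 (0.17 and 0.12) were not called. No marker was called by blocked limma among 7 erythroid, 8 lymphoid, 8 granulocyte and mast cell and 11 mesothelial and fibroblast genes. A marker outside the variance filter could not be called, and all erythroid markers but Ahsp lay outside it. So did Kit (mast cell) and Krt18, Wt1, Col1a2, Col3a1, Lum and Pdgfra (mesothelial and fibroblast). Of the 7 erythroid markers 6 lay under the median of all values. Above that median lay 5 of 8 lymphoid, 2 of 8 granulocyte and mast cell and 2 of 11 mesothelial and fibroblast markers. Some ranged widely between samples. In control macrophages Cpa3 (mast cell) ran from 3.19 to 7.92, Dcn (fibroblast) from 2.37 to 6.22 and Gzmb (lymphoid) from 1.68 to 4.85. Some macrophage markers ranged widely too, with Adgre1 from 5.09 to 7.49 and Cd14 from 9.54 to 11.7 in control macrophages. The beta-actin gap between 3 prime and 5 prime probe sets averaged 3.02 ± 0.30 over the 5 control samples and 3.30 ± 0.32 over the 5 mye-macrophage samples on the log2 scale (± SD, p = 0.190 by an exact permutation test, two-sided). That test ignores the pairs. A paired exact sign-flip test gave p = 0.188, and its smallest possible p is 0.0625. The gap was large on every array, from 2.66 to 3.71. The part of these markers and of the beta-actin gap in the values of the iron genes was not tested, apart from the fit with the gap as a covariate.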

How the data were processed

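The authors hybridized RNA to Affymetrix rat GeneChips and deposited log2 RMA values made with the affy package (version not given in the sources used here). RMA corrects the background, equalizes the arrays and summarizes the probes, which pulls small changes toward 0. The array medians (2.30 to 2.34) are low for RMA and no source says why. Of the 31099 rows of the value table, 57 Affymetrix control probe sets were left out. The array annotation gives 1 symbol to 20826 probe sets, several to 436 and none to 9780. With several probe sets the one with the highest mean stands for a gene.

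The comparison used limma 3.58.1 (R 4.3.3) on 31042 probe sets, blocked by replicate number, with p-values adjusted over the 50% with the larger interquartile range. Other iron genes were named where called, where the groups did not overlap, or for Hmox1, Ncoa4, Fbxl5 and Nfe2l2 whatever their values. Fth1, Ftl1 and Tf were to be named too, but their probe sets carry further symbols. Samples with the same number deviated together from the group means (correlations of 0.404 to 0.791, at most 0.279 across numbers), so the numbers, which come from the labels, were taken as pairs. The methods name an unpaired test, which was run as an alternative. The exact permutation test used Python 3.11. The fits were tested on simulated data, with changes larger than those of the iron probe sets, placed in filtered probe sets above the median of all values. Smaller changes and dimmer probe sets were not tested in this way. The genes and lists were chosen with earlier results of these data known. The number of arrays limits the precision.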

Additional observations from a re-analysis of the deposited data

How the results depend on the processing

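No setting called an iron uptake, export or sensing probe set, and their median log2 fold change stayed between -0.065 and 0.043, both reached with 1 sample left out (control replicate 2 and mye-macrophage replicate 1, without the block). With 418 probe sets of the whole array called in the blocked fit, no replicate block gave 0, as did the methods' t-test with equal or unequal variances (1032, 778 and 709 at an unadjusted p under 0.05). A trended and robust prior gave 1041, no variance filter 128 and the beta-actin gap as a covariate 16. The range with a sample or a pair left out was 0 to 672. For the other iron genes, 3 with the block, the count was 0 without the replicate block, by both t-tests, with no variance filter and with the gap as a covariate, 9 with the trended and robust prior (4 higher and 5 lower), and 0 to 3 with a sample or a pair left out. Blvra and Uros were each called in 6 and Fbxl5 in 2 of 25 alternatives (adjusted p over limma and t-test settings 0.0013 to 0.997, 0.0216 to 1.000 and 0.0021 to 1.000). Both Blvra and Uros lost the call without pair 1, 2, 4 or 5. Some directions turned, none of them of a called value. Hamp had -0.053 with the beta-actin gap and -0.028 to 0.22 with samples or pairs left out. Slc11a2 on 1388059_a_at had 0.0057 after quantile normalization, 0.013 with the beta-actin gap and -0.077 to 0.024 with samples or pairs left out. With samples or pairs left out Aco1 ran from -0.11 to 0.13, Slc11a2 on 1367877_at from -0.082 to 0.30, Tfrc on 1388750_at from -0.18 to 0.022 and Cp on 1368419_at from -0.60 to 0.020 (above 0 only without mye-macrophage replicate 4). The cause of these changes was not tested. Low signals of Slc40a1, Hamp and Hfe limit what could be measured there.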
